A study of Homo sapiens with 22 samples.

Results

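The 46 collagen and extracellular matrix genes examined here were chosen by name, with earlier results of these data known, out of 20015 protein-coding genes of GENCODE release 44 (hg38). They comprised fibrillar collagens, basement membrane components, other collagens, cross-linking enzymes, adhesive glycoproteins, elastic fibre components, proteoglycans, and proteases with their inhibitors. The cells were TC-32, an established line from Ewing sarcoma that makes the fusion protein EWSR1::FLI1. All cells were reverse transfected with 20 nM of 1 siRNA, either the control siNEG or siFLI1, the agent for depleting the fusion, and all carried the fusion gene before transfection. No untransfected cells, second siRNA or second cell line were among the samples, and the labels give neither the time of harvest nor whether replicates were separate transfections. Chromatin immunoprecipitation was done for H3K27ac, an acetylation found at active promoters and enhancers, for H3K4me3, a methylation found at promoters, and for the transcription factor ETS1, with 2 libraries per arm for each. A further H3K27ac library per arm carried an antibody label that names ab4729 and is set beside the others. That label also carries the catalogue number given for the other H3K27ac libraries, so the labels do not settle whether the antibody differed.

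The extracellular matrix is the network of secreted proteins that surrounds cells. Fibrillar collagens form its tensile fibres, collagen IV and laminins form the sheets of the basement membrane, fibronectin links these networks to integrins on the cell surface, and lysyl oxidases cross-link collagen and elastin. Ewing sarcoma is a bone and soft tissue tumour driven by the fusion, and cells in which the fusion is low are known for more mesenchymal features, such as adhesion, migration and matrix production.

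Peak lists were compared over each gene body and 10 kb to each side. Overlapping peaks of the 4 lists of a mark were merged into regions. Gained regions were those in the 2 siFLI1 lists and in no siNEG list, lost regions the reverse, and shared regions those in all 4 lists. These calls have no test per region. The covered length is the number of kilobases of a window that lie under peaks in 1 list, and a gene was called higher or lower when both siFLI1 lists lay above or below both siNEG lists. With 2 lists against 2 the exact permutation test (two-sided) cannot give a p below 0.33, so differences are read against the spread between replicates and against the same count over all genes. A peak list does not give transcript levels, and a region absent from a list may hold signal below the calling limit.

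The replicated H3K27ac lists held 60027 and 60401 peaks in siNEG and 65501 and 61481 in siFLI1, the H3K4me3 lists between 18344 and 19720, and the ab4729 lists 32738 in siNEG and 51663 in siFLI1. ETS1 lists held 302 and 208 peaks in siNEG against 1633 and 2635 in siFLI1. Between the ETS1 lists of siFLI1, peak heights differed by less than the sampling noise (chi-square per degree of freedom 0.42 over 496 regions), and the peak names in the list of replicate 1 carried the number 2, so both were counted as 1 sample. Read depths are not recorded in the lists. All 7 Ewing sarcoma marker genes examined (NKX2-2, CD99, NR0B1, PRKCB, CCND1, STEAP1 and BCL11B) had promoter H3K4me3 in all 4 lists. The blood marker PTPRC and the endothelial marker CDH5 had no promoter H3K4me3 in any list. H3K27ac cover of both was nonetheless longer in siFLI1, at 1.13 and 1.00 kb in siNEG and 1.898 and 1.41 kb in siFLI1 for PTPRC, and 0.300 and 0 kb against 1.46 and 1.06 kb for CDH5, which had 2 gained regions. Of the Ewing sarcoma markers, 5 of 7 had a lost H3K27ac region (17.1% of all protein-coding genes with a region had one), among them PRKCB with 89 regions and BCL11B with 27, where more regions give more chances of a call. The epithelial marker EPCAM had H3K27ac at its promoter in all 4 lists and H3K4me3 there in some lists, and its H3K27ac cover was 5.32 and 4.97 kb in siNEG and 3.46 and 3.56 kb in siFLI1. The part of other cell types or cell states in the results below was not tested.

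Sequences are given for some of the regions that the results below return to. Each runs 5′ to 3′ on the plus strand of hg38, and each was centred on the summit of the strongest peak. Capitals mark motif matches on either strand for AP-1 (TGANTCA) and TEAD (GGAATG, or CATTCC on the other strand). Every window shown held such a match, so the windows do not typify the regions. Of the gained H3K27ac regions at matrix genes, 7.69% held an AP-1 match and 12.8% a TEAD match near the summit. The summit windows of the TIMP2 gained region and the FBLN5 lost region named below held neither. An intronic region of COL4A1 had the highest fold among gained H3K27ac regions at these genes, and its window, chr13:110248283-110248483, contained 1 TEAD match.
COL4A1 gained: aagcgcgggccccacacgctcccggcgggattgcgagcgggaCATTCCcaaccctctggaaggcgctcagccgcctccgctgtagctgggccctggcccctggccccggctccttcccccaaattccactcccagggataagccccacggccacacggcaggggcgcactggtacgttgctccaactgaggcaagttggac
The LAMA4 window, chr6:112233365-112233565, held both an AP-1 and a TEAD match.
LAMA4 gained: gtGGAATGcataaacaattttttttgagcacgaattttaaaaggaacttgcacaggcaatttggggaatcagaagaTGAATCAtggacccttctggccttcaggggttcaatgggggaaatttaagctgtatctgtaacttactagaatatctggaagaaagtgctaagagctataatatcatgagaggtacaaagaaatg
The COL5A3 window, chr19:10009372-10009572, lies at the ETS1 summit in an intron, near a promoter where all 3 marks were gained. It was chosen after its values were seen, and it held an AP-1 match and no CCGGAA.
COL5A3 ETS1 summit: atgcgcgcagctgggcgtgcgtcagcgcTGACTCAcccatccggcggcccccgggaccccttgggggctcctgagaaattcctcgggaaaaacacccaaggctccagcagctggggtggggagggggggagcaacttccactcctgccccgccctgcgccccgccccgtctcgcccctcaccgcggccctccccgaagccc
The TNC window, chr9:115038010-115038210, comes from an intronic stretch of a lost region and held a TEAD match.
TNC lost: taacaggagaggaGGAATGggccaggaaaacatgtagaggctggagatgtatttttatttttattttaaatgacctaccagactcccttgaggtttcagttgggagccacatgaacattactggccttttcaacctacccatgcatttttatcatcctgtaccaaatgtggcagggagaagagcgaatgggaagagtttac

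H3K27ac regions were more often gained than lost at the matrix genes. The 46 windows together held 402 merged H3K27ac regions, of which 78 were gained, 8 were lost and 76 were shared. Gained regions made up 19.4% of them against 8.19% of the 90572 regions of the whole series, and lost regions 1.99% against 4.86%. Most gained regions lay in gene bodies (55), with 17 within 1 kb of a transcription start site (TSS) and 6 in the flanks. For 75 of the 78 gained regions the nearest TSS belonged to a matrix gene. The authors' fold over background, averaged over the lists that held a region, had a median of 4.48 in the gained regions at matrix genes and 4.60 in all gained regions, so those at matrix genes were of like height. With 1 list left out, which loosens the call, leaving out siNEG replicate 1 gave 96 gained and 35 lost regions, leaving out siNEG replicate 2 gave 97 and 35, and the counts were 152 and 15 without siFLI1 replicate 1 and 183 and 21 without siFLI1 replicate 2. When no peak of the other arm was allowed within 1 kb, 63 were gained and 2 were lost.

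At least 1 H3K27ac region was present at 35 of the 46 genes. Of these, 24 had a gained region (background of all protein-coding genes with a region, 29.7%) and 4 had a lost region (background, 17.1%). Gained regions outnumbered lost ones at 23 genes (background, 25.5%), and lost ones outnumbered gained ones at 3 genes (background, 12.3%), which were TNC, FBLN5 and ELN. The other 11 genes had no H3K27ac peak in their windows in any of the 4 lists: COL6A2, COL8A1, COL12A1, LOX, THBS1, THBS2, POSTN, FBN2, LUM, VCAN and TIMP3. In 98 further matrix genes, listed separately, 30 of the 70 with a region had a gained one and 7 had a lost one.

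**Figure D1:**
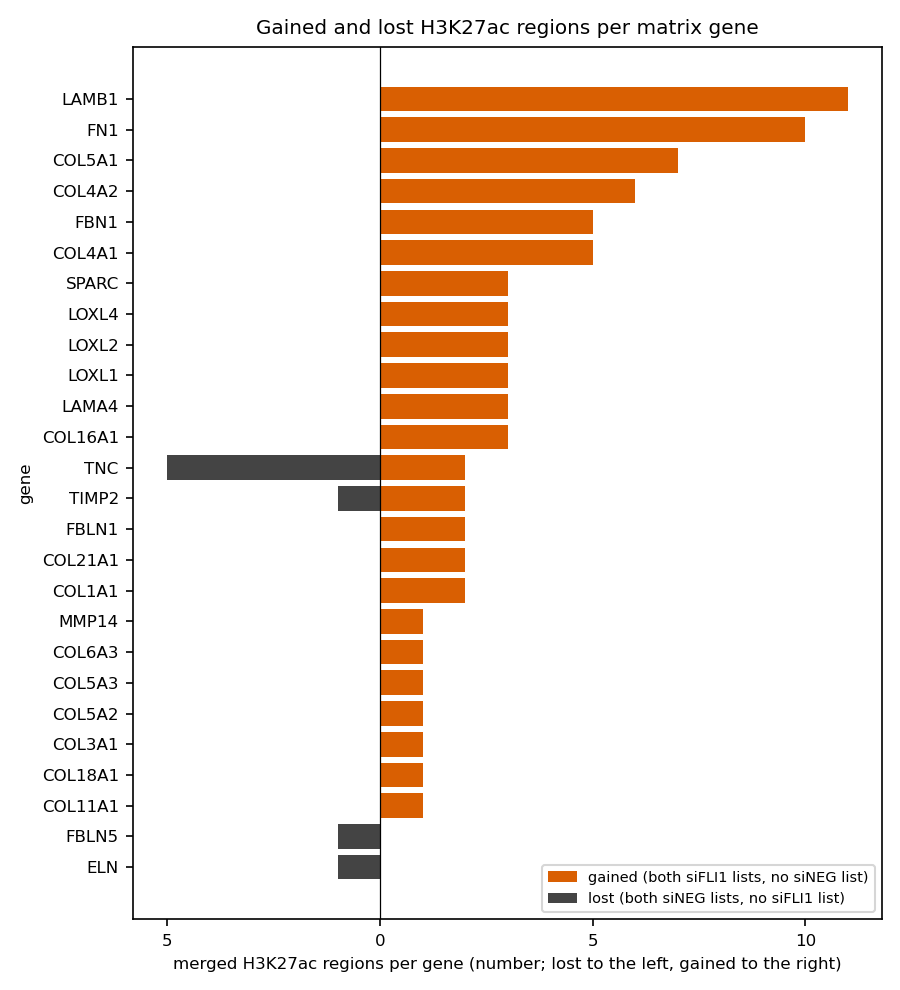
Number of merged H3K27ac regions per matrix gene (horizontal axis), with gained regions to the right in orange and lost regions to the left in grey, for the genes (vertical axis) that had either. LAMB1 had 11 gained regions and FN1 10, while TNC had 5 lost against 2 gained.

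Covered length moved the same way. Without any filter, 31 of the 35 genes were higher in both siFLI1 lists (88.6%, against a background of 44.1%), and 2, TNC and FBLN5, were lower (background, 15.5%). In LOXL3 and COL1A2 the arms overlapped or tied. With a minimum of 500 bp on average over the lists, 31 genes passed, of which 29 were higher (background, 46.7%) and 1 was lower (background, 16.2%). Of those that passed, 7 did so only through the siFLI1 arm, which fixes the direction of their means. Of the 25 with a siNEG mean of 500 bp or more, whatever siFLI1 held, 22 were higher and 2 were lower (88.0% and 8.00%), against 43.7% and 17.8% of the protein-coding genes that met the same minimum. Of the 98 further matrix genes, 59 passed the minimum over the 4 lists, of which 36 were higher and 6 were lower (61.0% and 10.2%). Without a filter the median log2 ratio of siFLI1 to siNEG covered length, with 500 bp added to each, was 0.94 over the 35 genes and 0.22 over all protein-coding genes with a region. Over all windows joined, 205 and 203 kb were covered in siNEG and 356 and 349 kb in siFLI1, without overlap between arms, and these sums made up 0.326% and 0.346% of everything covered in siNEG and 0.515% and 0.532% in siFLI1. The mean fold of the peaks inside these windows was 5.63 and 5.12 in siNEG and 5.73 and 5.90 in siFLI1.

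**Figure D2:**
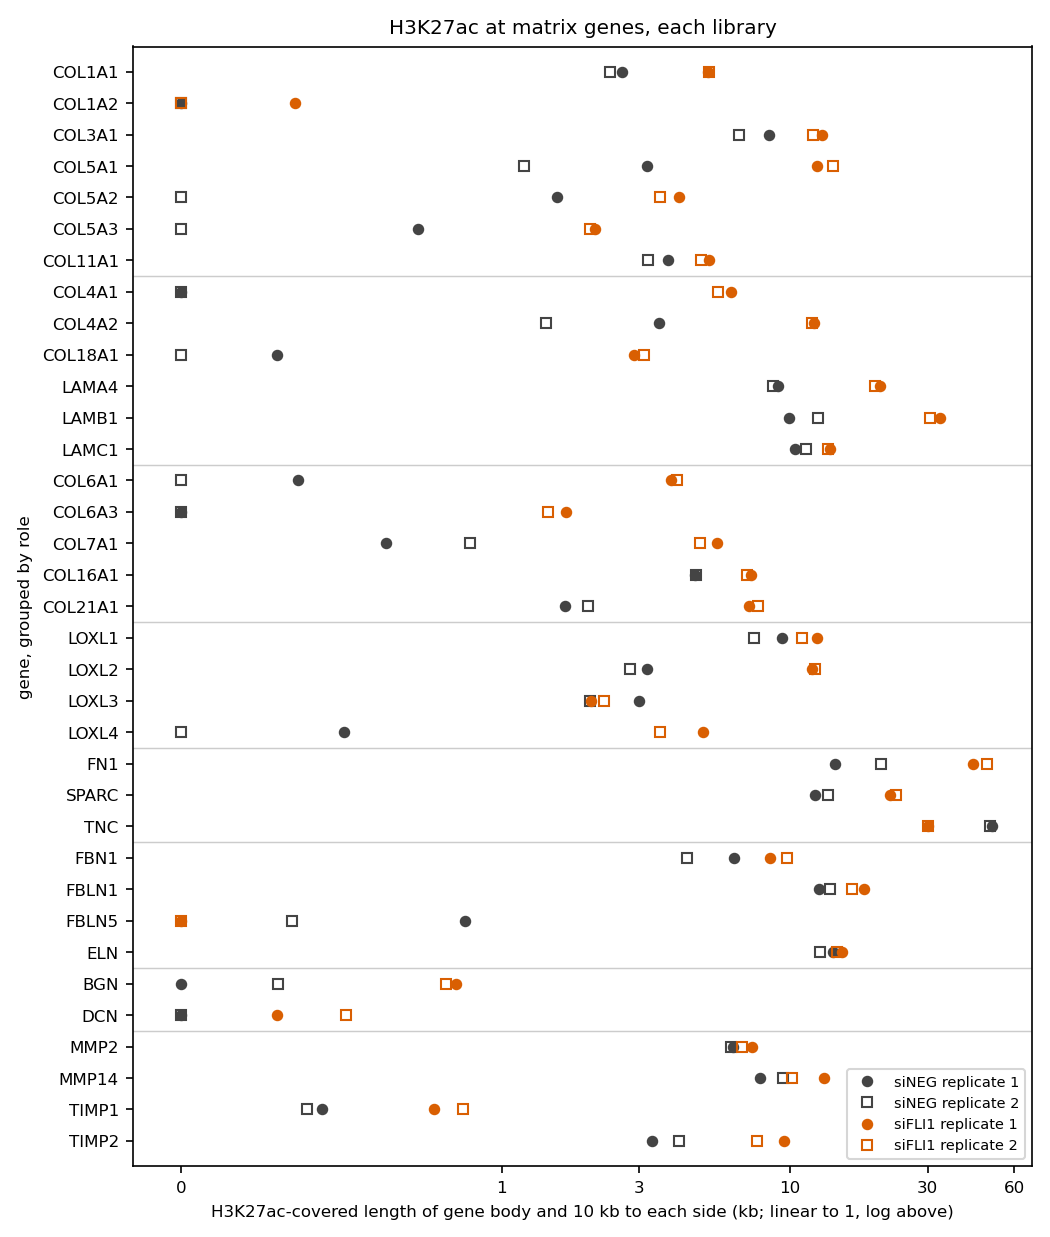
H3K27ac-covered length in kb (horizontal axis, linear to 1 kb and logarithmic above) for each matrix gene with a region (vertical axis, grouped by role), with siNEG in grey, siFLI1 in orange, and replicates 1 and 2 as filled circles and open squares. Orange points lie to the right of grey points in 31 of 35 genes, and to the left in TNC and FBLN5.

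Among the fibrillar collagens, 6 of 7 were higher (background of all protein-coding genes with a region, 44.1%) and 6 had gained regions (background, 29.7%). COL5A1 (chr9:134641803-134844843) encodes the chain of collagen V that sets the diameter of collagen I fibrils. It had 3.198 and 1.20 kb covered in siNEG and 12.4 and 14.04 kb in siFLI1. Both siFLI1 lists lay well above both siNEG lists, a 6.02-fold difference of means of 11.03 kb with a pooled SD of 1.29 kb (n = 2 per arm), and 7 gained regions lay in the window. COL3A1 (chr2:188974373-189012746), the collagen III chain of pliable tissues, had 8.46 and 6.66 kb in siNEG and 12.9 and 12.0 kb in siFLI1, a 1.65-fold difference of 4.90 kb with a pooled SD of 1.01 kb (n = 2 per arm). The flank of COL3A1 holds a gained region that also falls in the window of COL5A2, which encodes another collagen V chain. COL1A1, the main chain of collagen I, had 2.60 and 2.37 kb in siNEG and 5.21 kb in each siFLI1 list, and its 2 gained regions lay at the promoter and in the flank. COL1A2, which encodes the partner chain, had a single peak of 0.354 kb in siFLI1 replicate 1 and no peak in the other 3 lists. The genes for the 2 chains of collagen I therefore differed in how much H3K27ac their windows held.

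COL5A3 (chr19:9959561-10010504), which encodes a less widespread chain of collagen V, had 0.738 and 0 kb of H3K27ac in siNEG and 2.11 and 2.02 kb in siFLI1. Its gained H3K27ac region, chr19:10007373-10009736, had folds of 8.73 and 11.2. H3K4me3 at its promoter covered 0 kb in both siNEG lists and 1.32 and 1.17 kb in siFLI1, in a gained region (chr19:10009511-10010882) with folds of 14.4 and 17.5. An ETS1 region (chr19:10009338-10009658) was gained there too, with folds of 5.28 and 7.41. COL5A3 was the single matrix gene with a gained promoter region for all 3 marks.

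All 6 basement membrane genes were higher (background, 44.1%), and 5 had gained regions (background, 29.7%). They had a median of 13 H3K27ac regions. Among other protein-coding genes with 11 to 15 regions, 52.4% were higher and 50.3% had a gained region. LAMB1 (chr7:107923799-108003213), the beta-1 chain of laminin, had 9.93 and 12.5 kb in siNEG and 33.1 and 30.5 kb in siFLI1. The arms did not overlap, with a 2.84-fold difference of 20.6 kb and a pooled SD of 1.81 kb (n = 2 per arm), and its 11 gained regions were the most at any of these genes. LAMA4 (chr6:112107931-112254939), the alpha-4 chain found in vessel and mesenchymal basement membranes, had 9.05 and 8.74 kb in siNEG and 20.5 and 19.7 kb in siFLI1. This was a 2.26-fold difference of 11.2 kb with a pooled SD of 0.434 kb (n = 2 per arm). Its strongest gained region, chr6:112232455-112235254, had folds of 8.15 and 7.70 and contains the LAMA4 sequence given above. Its nearest TSS is that of ENSG00000281613, 1552 bp away, against 15701 bp to that of LAMA4, and the same gene's TSS is the nearest to another of the 3 gained regions in LAMA4. LAMC1, the gamma-1 chain, had 10.4 and 11.4 kb in siNEG and 13.8 and 13.6 kb in siFLI1, with no gained H3K27ac region. COL18A1, the source of the fragment endostatin, had 0.299 and 0 kb in siNEG and 2.88 and 3.10 kb in siFLI1.

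COL4A1 and COL4A2 encode the chains of the common collagen IV and are transcribed in opposite directions from a shared promoter. COL4A1 (chr13:110148963-110307157) had no H3K27ac peak in either siNEG list and 6.25 and 5.63 kb in siFLI1, so no fold is given. COL4A2 (chr13:110305812-110513209) had 3.51 and 1.42 kb in siNEG and 12.1 and 11.9 kb in siFLI1, a 4.86-fold difference of 9.51 kb with a pooled SD of 1.05 kb (n = 2 per arm). The siFLI1 lists lay above the siNEG lists at both genes, with 5 gained regions in COL4A1 and 6 in COL4A2, all inside the gene bodies. The strongest, chr13:110247088-110248743, lies in an intron of COL4A1 with folds of 13.5 and 11.6, and the COL4A1 sequence above is its summit. Another, chr13:110221681-110222312, had folds of 7.35 and 8.61 and was present in both ab4729 lists, siNEG included. H3K4me3 at the shared promoter was present in all 4 lists and covered 3.40 and 3.69 kb in siNEG and 4.24 and 5.10 kb in siFLI1.

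**Figure D3:**
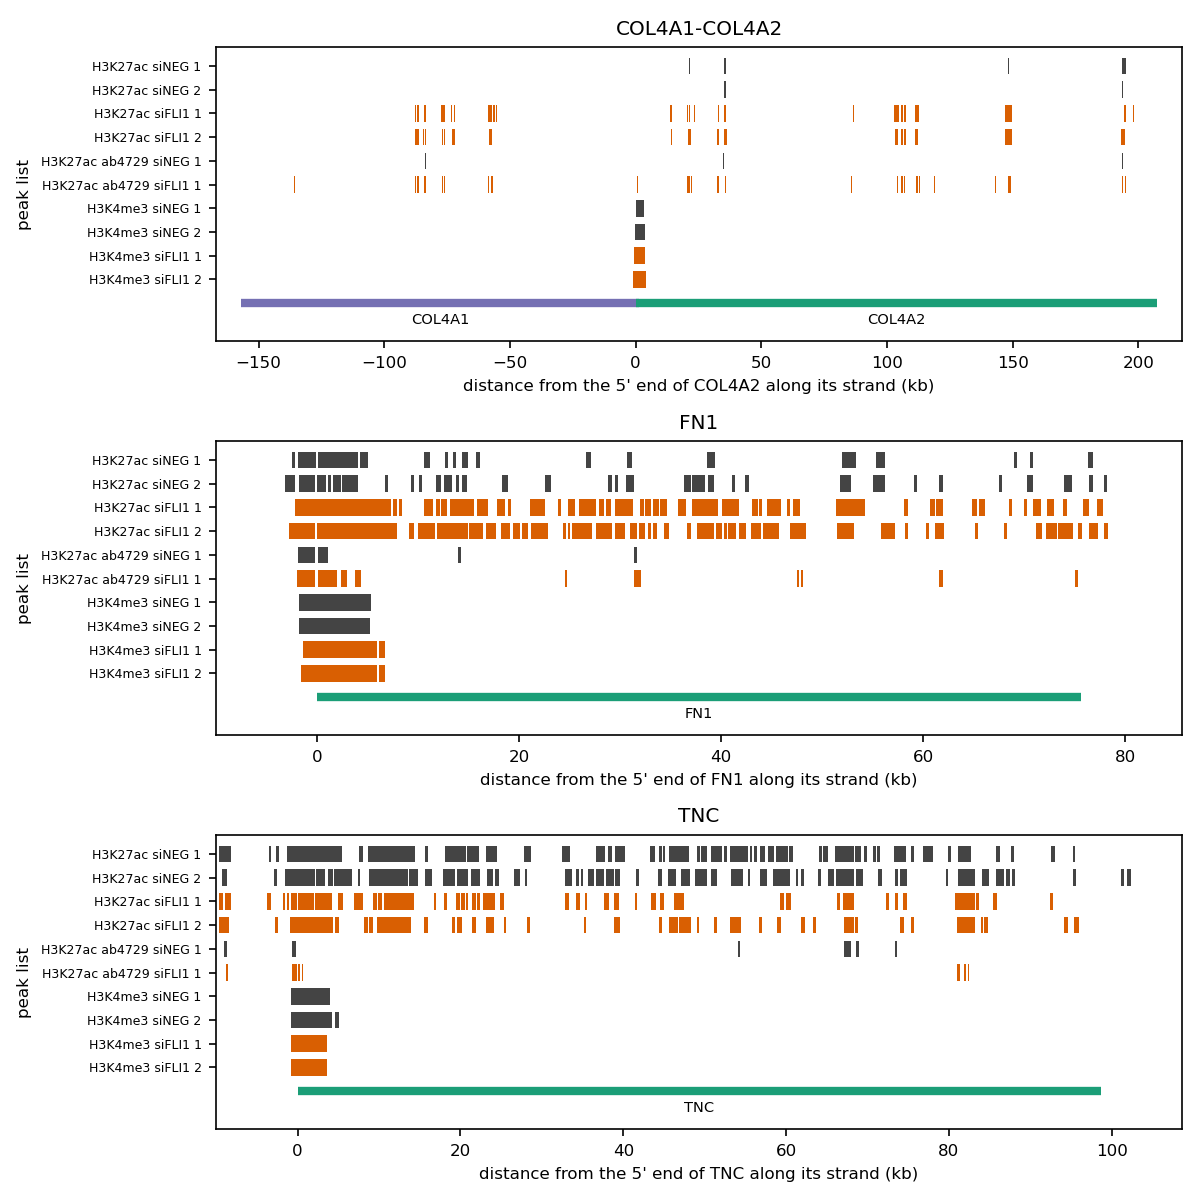
Peaks of each list (rows, siNEG in grey and siFLI1 in orange) along COL4A1 and COL4A2, FN1 and TNC, by distance in kb from the 5′ end of COL4A2, FN1 or TNC along its strand (horizontal axis), with gene bodies drawn at the foot. COL4A1 carries H3K27ac peaks in siFLI1 lists but not in the replicated siNEG lists, FN1 has more peak cover in siFLI1, and TNC has more peak cover in siNEG.

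Of the 8 other collagens, 5 had a region and all 5 were higher (background of all protein-coding genes with a region, 44.1%). COL7A1, the anchoring fibril collagen of skin, had 0.640 and 0.902 kb in siNEG and 5.59 and 4.88 kb in siFLI1, a 6.79-fold difference of 4.47 kb with a pooled SD of 0.378 kb (n = 2 per arm). COL21A1, a fibril-associated collagen, had 1.66 and 1.99 kb in siNEG and 7.18 and 7.73 kb in siFLI1, a 4.08-fold difference of 5.63 kb with a pooled SD of 0.317 kb (n = 2 per arm). Both had no overlap between arms. COL6A1 and COL6A3 encode chains of collagen VI, which forms beaded filaments around cells. COL6A1 had 0.363 and 0 kb in siNEG and 3.88 and 4.06 kb in siFLI1, mostly in its flank, and COL6A3 had no peak in siNEG and 1.67 and 1.44 kb in siFLI1. The third chain gene, COL6A2, had no H3K27ac peak in any of these lists, so the chains of collagen VI were not alike. COL16A1 had 4.70 and 4.72 kb in siNEG and 7.34 and 7.09 kb in siFLI1.

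Among the cross-linking enzymes, LOXL1, LOXL2 and LOXL4 were higher, LOXL3 overlapped between arms and LOX had no H3K27ac peak. LOXL2, a lysyl oxidase that acts on collagen IV, had 3.19 and 2.79 kb in siNEG and 11.9 and 12.2 kb in siFLI1. The arms were far apart relative to their spread, with a 4.04-fold difference of 9.08 kb and a pooled SD of 0.231 kb (n = 2 per arm). Its strongest gained region, chr8:23342904-23346068, had folds of 7.69 and 8.68. LOXL4 had 0.509 and 0 kb in siNEG and 4.99 and 3.54 kb in siFLI1, with 3 gained regions. LOXL1, which is needed for elastic fibre upkeep, had 9.35 and 7.49 kb in siNEG and 12.4 and 11.03 kb in siFLI1. LOXL3 had 2.997 and 2.02 kb in siNEG and 2.04 and 2.27 kb in siFLI1, so no direction can be read.

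The adhesive and matricellular glycoproteins held both extremes. FN1 (chr2:215360440-215436073), fibronectin, had 14.3 and 20.6 kb in siNEG and 43.0 and 48.2 kb in siFLI1. Its difference of 28.2 kb (2.62-fold, pooled SD 4.10 kb, n = 2 per arm) was the widest among the matrix genes, with 10 gained regions, none in the stretch nearest its 5′ end. Some of the 10 had a siNEG peak within 1 kb, and most were absent from the ab4729 siFLI1 list. Their mean folds ran from 3.27 to 5.48. SPARC, osteonectin, a collagen-binding protein of bone, had 12.2 and 13.5 kb in siNEG and 22.3 and 23.2 kb in siFLI1, a 1.77-fold difference of 9.88 kb with a pooled SD of 0.799 kb (n = 2 per arm).

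TNC (chr9:115019575-115118207), tenascin-C, a matricellular protein of developing and tumour stroma, went the other way. It had 49.996 and 49.4 kb in siNEG and 30.1 kb in each siFLI1 list, a difference of -19.7 kb with a pooled SD of 0.276 kb (n = 2 per arm). Its arms did not overlap, and in siNEG its window held more H3K27ac than that of any other matrix gene. It held 5 lost and 2 gained regions. The stronger lost ones, chr9:115037969-115038600 with folds of 5.39 and 3.39 and chr9:115046426-115046979 with folds of 4.03 and 4.63, reach into coding exons of TNC, and both also lie inside the overlapping gene DELEC1, to which the peaks could belong equally. Of the 5 lost regions, 4 had a siFLI1 peak within 1 kb. The promoter of TNC held H3K27ac and H3K4me3 in all 4 lists. THBS1, THBS2 and POSTN, which encode thrombospondins 1 and 2 and periostin, had no H3K27ac peak.

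In the elastic fibre group, FBN1, FBLN1 and ELN were higher and FBLN5 was lower. FBN1, fibrillin-1, had 6.36 and 4.38 kb in siNEG and 8.53 and 9.76 kb in siFLI1 with 5 gained regions. FBLN1, fibulin-1, had 12.6 and 13.7 kb in siNEG and 18.0 and 16.4 kb in siFLI1, a 1.31-fold difference of 4.03 kb with a pooled SD of 0.997 kb (n = 2 per arm). ELN, elastin, differed little, with 14.1 and 12.7 kb in siNEG and 15.2 and 14.5 kb in siFLI1, and it was counted as higher although it had 1 lost region and no gained one. FBLN5 (chr14:91869411-91947987), fibulin-5, which tethers elastic fibres to cells, had 0.884 and 0.345 kb in siNEG and 0 kb in both siFLI1 lists. Its lost region, chr14:91919539-91920143, had folds of 5.99 and 4.11 and was held by the ab4729 siNEG list and not by the ab4729 siFLI1 list.

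The proteoglycan genes held little H3K27ac. BGN, biglycan, had 0 and 0.300 kb in siNEG and 0.858 and 0.825 kb in siFLI1. DCN, decorin, had no peak in siNEG and 0.298 and 0.515 kb in siFLI1. Both were higher, but with peaks of under 1 kb in all. LUM and VCAN, lumican and versican, had none.

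Among proteases and inhibitors, TIMP2, MMP14, MMP2 and TIMP1 were higher. TIMP2, an inhibitor of matrix metalloproteinases, had 3.32 and 4.12 kb in siNEG and 9.51 and 7.69 kb in siFLI1, a 2.31-fold difference of 4.88 kb with a pooled SD of 0.993 kb (n = 2 per arm). TIMP2 held a gained region, chr17:78882736-78885624, with folds of 10.9 and 12.3, and also the strongest lost region, chr17:78925396-78925917, at its promoter, with folds of 7.21 and 6.18. That lost region was present in both ab4729 lists and had a siFLI1 peak within 1 kb. MMP14, a membrane-bound collagenase, had 7.87 and 9.48 kb in siNEG and 13.1 and 10.2 kb in siFLI1, and MMP2, a gelatinase, 6.34 and 6.22 kb against 7.37 and 6.84 kb. TIMP1 had 0.440 and 0.391 kb in siNEG and 0.787 and 0.878 kb in siFLI1.

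H3K4me3 showed fewer calls of either kind. The windows held 56 H3K4me3 regions, of which 6 were gained (background of all regions, 2.17%), 1 was lost (background, 2.83%) and 36 were shared. Without siNEG replicate 1 there were 6 gained and 6 lost regions, and without siNEG replicate 2 there were 8 and 7. The counts were 8 and 1 without siFLI1 replicate 1 and 11 and 1 without siFLI1 replicate 2. The excess of gained over lost regions was thus small or absent with either siNEG list left out. A lost region can then be called from the other siNEG list alone, which raises lost counts by construction. Of the 37 genes with a region, 6 had a gained one (background, 3.53%) and 1 a lost one (background, 6.27%). Of the 98 further matrix genes, 62 had an H3K4me3 region, and 4 of these had a gained one and 6 a lost one. Covered length was higher in both siFLI1 lists at 23 of the 37 genes (background, 16.1%) and lower at 7 (background, 43.8%), which were COL7A1, LOXL3, TNC, FBLN1, ELN, VCAN and MMP14. With the 500 bp minimum, 22 of 35 matrix genes were higher and 7 were lower. Of 53 further matrix genes past it, 18 were higher and 16 were lower, against 15.4% and 45.4% of all protein-coding genes past it. The median log2 ratio, with no filter, was 0.35 over the 37 genes and -0.10 over all protein-coding genes with an H3K4me3 region.

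Promoter H3K4me3 differed between matrix genes. A promoter H3K4me3 region was shared by all 4 lists at 29 of 46 genes, including COL1A1, COL3A1, COL4A1, FN1, SPARC and LOX. At 11 genes no list held one (background, 34.0%): COL1A2, COL6A3, COL7A1, COL12A1, COL16A1, COL21A1, LOXL4, THBS2, POSTN, DCN and LUM. LOXL2 and FBN2 had it in some lists. The remaining 4 genes, THBS1, COL5A3, TIMP3 and BGN, gained it (background of all protein-coding genes, 0.899%). The share with a promoter region in all 4 lists was 63.0% at matrix genes and 62.9% over all genes. Within the windows of COL7A1 and COL16A1 the H3K4me3 regions lay at neighbouring genes (PFKFB4 and PEF1), and those of LOXL3 and MMP14 also took in promoters of neighbours, so their covered lengths are not those of the matrix gene alone.

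THBS1 (chr15:39581079-39599466) encodes thrombospondin-1, a secreted regulator of adhesion and of TGF-beta. Its H3K4me3 covered 0 kb in both siNEG lists and 3.80 and 2.88 kb in siFLI1, in the region chr15:39580455-39583868 with folds of 14.2 and 15.7. TIMP3 (chr22:32801705-32863041), an inhibitor held in the matrix, had 0 kb in siNEG and 1.93 and 2.14 kb in siFLI1, in chr22:32801765-32803994 with folds of 6.36 and 7.25. Neither THBS1 nor TIMP3 had an H3K27ac peak in any of the 6 H3K27ac lists, so these promoters were called for 1 mark and not for the other. BGN gained a small H3K4me3 region, chrX:153494952-153495318, covering 0.338 and 0.367 kb in siFLI1 and 0 kb in siNEG, with folds of 3.42 and 3.91.

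The other gained H3K4me3 regions lay away from the annotated main promoters. In FN1 the region chr2:215429344-215430004, inside the gene, had folds of 4.33 and 3.45, and total H3K4me3 cover of FN1 was 7.10 and 7.03 kb in siNEG and 8.01 and 8.20 kb in siFLI1. The flank of FBLN1 held chr22:45602901-45603320 with folds of 6.33 and 6.45, while total H3K4me3 cover of FBLN1 was 4.11 and 4.13 kb in siNEG and 3.51 and 3.91 kb in siFLI1. The single lost region, chr14:22833096-22833672, with folds of 3.60 and 3.03, lay in the window of MMP14 at the TSS of the neighbour MRPL52, and H3K4me3 cover of that window was 7.40 and 8.74 kb in siNEG and 6.26 and 6.51 kb in siFLI1.

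Longer H3K4me3 domains at promoters present in all lists accounted for several genes called higher. LAMA4 had 2.19 and 2.38 kb in siNEG and 5.26 and 5.46 kb in siFLI1. COL1A1 had 0.536 and 1.11 kb in siNEG and 2.24 and 2.54 kb in siFLI1. FBN1 had 1.01 and 1.52 kb in siNEG and 2.73 kb in each siFLI1 list. These genes were also higher for H3K27ac, with no overlap between arms in either mark. LOX, the founding lysyl oxidase, had 0.665 and 1.28 kb of H3K4me3 in siNEG and 2.79 and 2.41 kb in siFLI1, and no H3K27ac peak. VCAN, a large proteoglycan, went the other way, with 2.07 and 1.83 kb in siNEG and 0.644 and 0.711 kb in siFLI1.

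**Figure D4:**
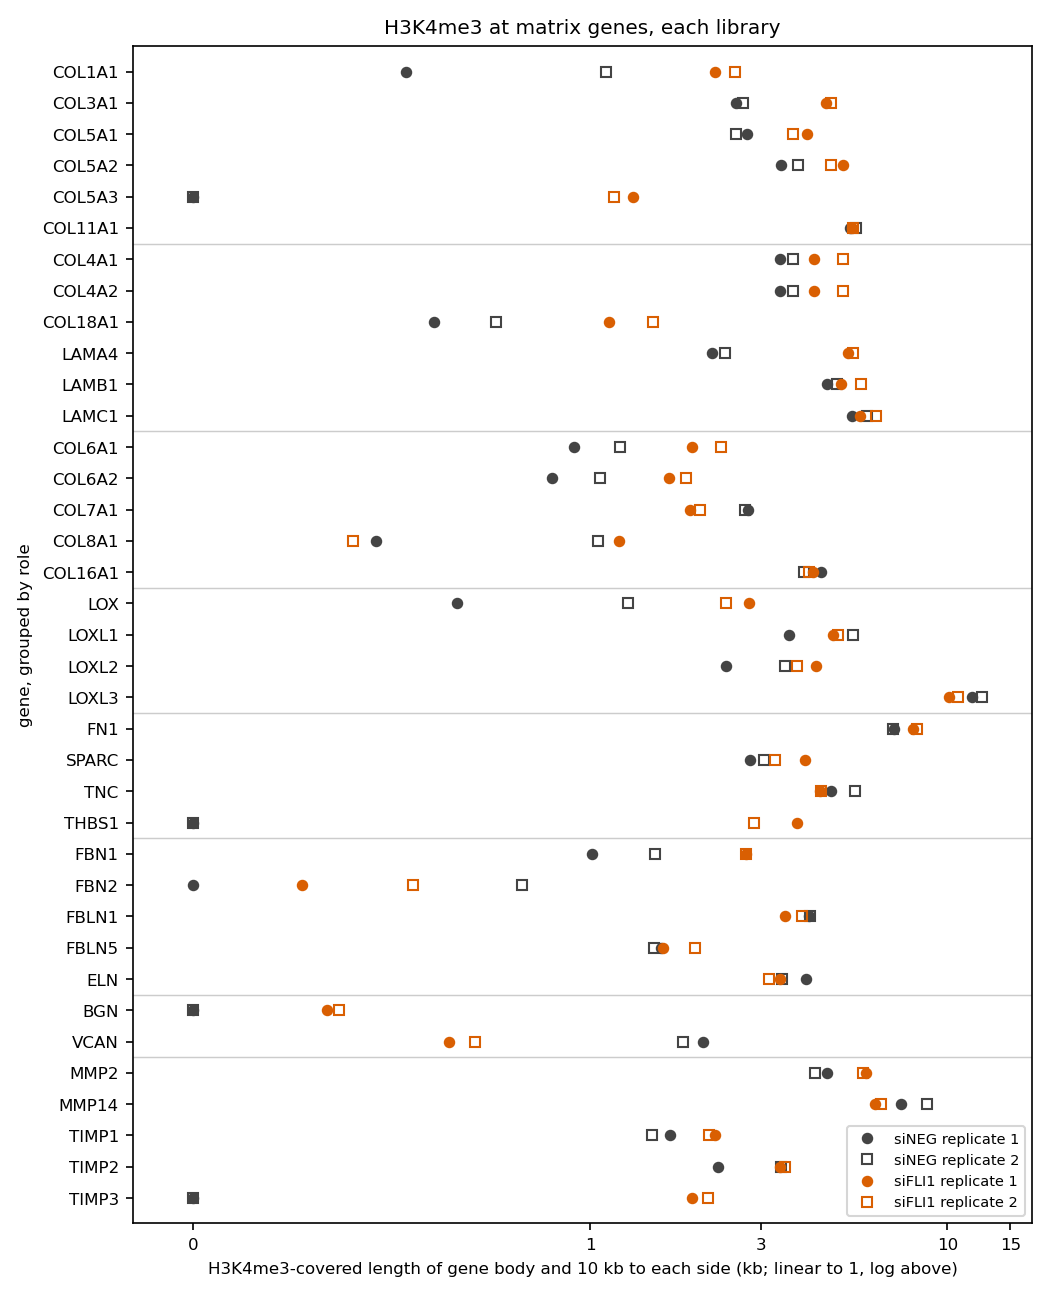
H3K4me3-covered length in kb (horizontal axis, linear to 1 kb and logarithmic above) for each matrix gene with a region (vertical axis, grouped by role), with siNEG in grey, siFLI1 in orange, and replicates 1 and 2 as filled circles and open squares. THBS1, TIMP3, COL5A3 and BGN are at 0 in siNEG, while VCAN has siFLI1 points to the left.

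ETS1 is a transcription factor that binds CCGGAA and related sites. No siNEG ETS1 list held a peak in any matrix gene window. The siFLI1 lists held 8 regions at 7 of the genes. Of these regions 5 were gained (62.5%, against a background of all ETS1 regions of 44.0%), at 5 of 7 genes (71.4%, background, 48.7%). These shares rest on few regions. The 5 genes stood near the 4.87 found at the shares among genes with a like number of H3K27ac regions. The siFLI1 lists were several times longer than the siNEG lists and counted as 1 sample, so no spread can be given for that arm. The region at the FN1 promoter, chr2:215435797-215436355, had folds of 8.01 and 11.8, and the one at the promoter of LAMC1, chr1:183022856-183023415, 6.13 and 8.16. The COL5A3 region is given above. Of the 2 others, chr2:74554397-74554778, with folds of 6.21 and 10.998, lay over the TSS of DOK1 and 436 bp from that of LOXL3, and chr1:31644527-31644869 lay at the promoter of the neighbour PEF1 in the window of COL16A1 with folds of 5.74 and 6.17. With the same number of strongest ETS1 peaks taken from each list, none of the 5 was called gained. None of the 5 summit windows, 100 bp to each side, held CCGGAA, against 18.4% of all 1190 gained ETS1 regions.

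The gained H3K27ac regions at matrix genes held motifs about as often as all gained regions. Within 100 bp of the summit, TGANTCA was found in 6 of 78 (7.69%, against 6.22% of all gained regions), GGAATG in 12.8% against 11.6%, and CCGGAA in 2.56% against 2.36%, on either strand.

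Other protein-coding genes with a like number of H3K27ac regions were set beside the matrix genes, since a gene with more regions has more chances of a call. The number was matched exactly up to 10 regions, and in bands of 11 to 15, 16 to 20, 21 to 30, and 31 or more above that. The open band held FN1, LAMB1 and TNC, with 44, 35 and 58 regions, so the matching is loose for the genes with the most regions. This is a description of these lists. A gained H3K27ac region was present at 24 of the 46 matrix genes, against 13.7 at the shares found among such genes (52.2% against 29.7%), and a lost one at 4 against 8.99 (8.70% against 19.6%). Of the 46 genes, 11 had no H3K27ac region and were matched to genes without one, where no H3K27ac call is possible. This lowers the H3K27ac shares on both sides, so this 29.7% is not the earlier background of genes with a region. Gained regions, counted once per gene, came to 79 against 26.2 and lost ones to 8 against 15.7. Covered length, with no filter, was higher at 31 against 16.2 genes, and lower at 2 against 6.19. An H3K4me3 region was gained at 6 genes against 1.29 and lost at 1 against 2.77. For ETS1 the 5 genes with a gained region stood against 4.87, so the counts were alike.

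**Figure D5:**
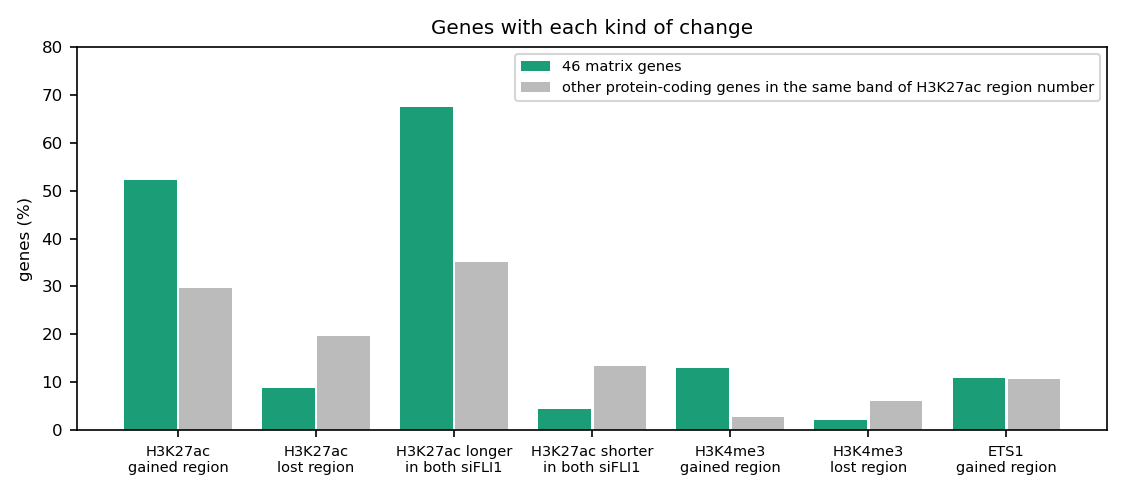
Percentage of the 46 matrix genes (green bars) and of other protein-coding genes in the same band of H3K27ac region number (grey bars) with each kind of change (horizontal axis). The bars for H3K27ac gain are 52.2% and 29.7%, and those for ETS1 gain are 10.9% and 10.6%.

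The ab4729 lists gave a further view of H3K27ac, with 1 library per arm and no spread. Over the joined windows 47.5 kb were covered in siNEG and 144 kb in siFLI1, beside a siFLI1 list that was longer in all. Of the 29 genes called higher with the 500 bp minimum, 28 were longer in the ab4729 siFLI1 list, and so were 88.3% of all protein-coding genes called higher by the same rule and 78.4% of all genes tested. Of those 29, 7 had passed the minimum only through the siFLI1 arm, as had 638 of the 6031 protein-coding genes called higher. The shares are therefore not over sets of the same make-up. TNC was shorter there as well, at 2.44 kb in siNEG and 1.89 kb in siFLI1. FN1 had 3.27 kb in siNEG and 6.63 kb in siFLI1, LAMB1 1.47 and 8.92 kb, COL5A1 1.75 and 9.21 kb, and COL4A1 0.184 and 3.86 kb. Of the 78 gained regions, 34 were in the ab4729 siFLI1 list alone, 1 was in the siNEG list alone, 2 were in both and 41 were in neither. The siFLI1 list alone held 43.6% of these regions and 31.6% of all gained regions, and 52.6% and 65.6% were in neither.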

How the data were processed

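Peak lists of 14 immunoprecipitated libraries of TC-32 cells were used, 1 per library, out of 22 samples; the 8 input libraries were not analysed here. Per the submitters' processing notes, the tools were cutadapt 4.4, BWA 0.7.17, Picard 2.17.11 and MACS2 2.1.1, with the builds GRCh38, hg38 and dm6. The control library and peak settings are not given in the sources used here. The deposited fold column is the authors' ratio of peak to background, the deposited −log10 columns are the authors' p-value and q-value, and the deposited score is a whole number per peak that was not used. Fold values are the authors' own and were used only to describe and rank peaks. A stronger immunoprecipitation or deeper library gives more and longer peaks, which moves both region calls and covered lengths; read depth is not given in the lists.

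Only peaks of the autosomes, X and Y were used, and they were merged wherever they shared at least 1 bp. Gene models came from GENCODE release 44. Log2 ratios carry 500 bp added to each arm mean. The members and lists were chosen with earlier results of these data known. Values in every list are given for up to 14 genes with non-overlapping arms and the widest difference, and for genes with a gained or lost H3K4me3 or ETS1 region; the 6 gained and 4 lost regions with the highest folds are named. Values of further members were added to account for each role, chosen after they were seen. Python 3.11.15, numpy 2.4.6, pandas 2.3.3, scipy 1.17.1 and matplotlib 3.10.9 were used. One sequence and the result that rests on it are not reported here.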

Additional observations from a re-analysis of the deposited data

Results flagged for a closer look

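TIMP1, an inhibitor of matrix metalloproteinases, was higher in both replicated siFLI1 H3K27ac lists, while its cover in the ab4729 lists differed by -0.324 kb, from 0.324 kb in siNEG to 0 kb in siFLI1. The arms thus moved in opposite directions in the replicated and the ab4729 libraries. The difference was not tested, and with 1 ab4729 library per arm it has no spread.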

How the results depend on the processing

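Of 97 values from alternative settings over 9 results, 68 stayed close to the reported value and 29 moved. Close meant within a factor of 1.5 for counts and within the pooled SD between lists (0.0611) for the median log2 ratio. A reversal could be called for the median log2 ratio alone, and 0 were found. For the counts no reversal was defined. Leaving out 1 list at a time, gained H3K27ac regions ranged from 96 to 183 (152 without siFLI1 replicate 1, 183 without siFLI1 replicate 2) and lost ones from 15 to 35 (35 without either siNEG list, 15 and 21 without siFLI1 replicates 1 and 2). Gained H3K4me3 regions ranged from 6 to 11 (11 without siFLI1 replicate 2) and lost ones from 1 to 7 (6 and 7 without siNEG replicates 1 and 2). Gained ETS1 regions ranged from 5 to 8 (8 without siFLI1 replicate 1), genes lower in covered length from 1 to 2 (2 without siNEG replicate 2), and the median log2 ratio of covered length (1.11) from 0.95 to 1.16. Fewer lists are then needed for a call, which raises counts by construction. Lost H3K27ac regions fell to 2 when no peak of the other arm was allowed within 1 kb. The 1 lost H3K4me3 region became 0 with gene bodies alone, at −log10 q of at least 5, with equal numbers of peaks, with no peak allowed within 1 kb, or with regions nearest to a matrix gene TSS, and 2 with 50 kb flanks. The 5 gained ETS1 regions became 3 with gene bodies alone, 9 with 50 kb flanks, 0 with equal numbers of peaks and 3 with regions nearest to a matrix gene TSS. With 50 kb flanks 2 genes were lower. The median log2 ratio was 1.43 with gene bodies alone, 0.87 with 50 kb flanks, 1.57 in the ab4729 pair and 0.55 with no filter over all 46 genes, 11 of them without a peak (0.94 over the 35 with a region). The restriction to the nearest TSS was chosen after seeing the data.

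The replicate block, which compared same-numbered lists, left 29 genes higher, 1 lower and a median of 1.11. Deviations of same-numbered lists had a correlation of 0.0115 over 12908 genes, so covered length showed no deviation shared by same-numbered lists. This does not tell whether same-numbered libraries were prepared together. With equal numbers of the strongest H3K27ac peaks (60027 per list), 29 genes were higher and 1 was lower, and the median was 1.11. These medians cover only the 31 genes past the 500 bp minimum, 7 of which passed through the siFLI1 arm alone, so they are not set against all genes. Peak lists without read counts limit all of this to presence and length.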
